A study of Mus musculus with 20 samples.

Results

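Chromatin-associated RNA of Mettl3-knockout cardiomyocyte cultures (CM KO) was set against that of the Mettl3-knockout embryonic stem cells (ESC KO). There was 1 library of each. The genes described are the 4763 protein-coding genes with at least 1 RPKM (reads per kilobase of gene, scaled to the library's total reads) in either KO library, of 16169 protein-coding genes listed in any of the 4 chromatin RNA libraries of the study. Genes missing from a library's list counted as 0 there, and each gene was described by log2((CM KO + 1)/(ESC KO + 1)), called the log2 ratio below. A gene was called higher or lower where this ratio reached 2-fold, a log2 ratio of 1 or of -1.

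The cells are mouse, of strain C57BL/6, and the knockout is labelled Mettl3-KO, with no further detail of the allele or of the number of clones. CM KO and ESC KO therefore share the knockout, and they differ in cell state. Beside them stand a wild-type cardiomyocyte culture (CM WT) and wild-type embryonic stem cells (ESC WT), again 1 library each. Per the labels' protocols, the cultures were made from the stem cells through embryoid bodies, cell aggregates grown in medium with serum and ascorbic acid and then replated on gelatin. The study also holds ATAC-seq, which maps open chromatin, with 3 libraries a group, and lists of m6A positions in chromatin RNA, with 1 a group.

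Mettl3 encodes the catalytic subunit of the enzyme that writes N6-methyladenosine (m6A) on nuclear RNA. Chromatin-associated RNA is rich in transcripts still being made, so its level lies closer to transcription than that of total RNA. Embryonic stem cells are held in the pluripotent state by transcription factors such as OCT4, NANOG and the KLF proteins. When embryoid bodies differentiate, these genes are shut down while mesoderm, endoderm and blood programmes start, and cardiomyocytes arise among other cell types.

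The labelled cell type was checked first. Cardiomyocyte genes were nearly silent in CM KO. The 7 cardiomyocyte markers summed to 0.474 RPKM in CM KO and 0.563 RPKM in ESC KO, beside 7.48 RPKM in CM WT and 0.696 RPKM in ESC WT. None of the 7 reached 1 RPKM in CM KO, whereas 4 did in CM WT. Cardiac actin Actc1 stood at 0.0962 RPKM in CM KO and was not listed in ESC KO, beside 1.90 RPKM in CM WT and 0.0114 RPKM in ESC WT. Titin (Ttn), the elastic filament of the sarcomere, was lower in CM KO than in ESC KO, at 0.140 against 0.491 RPKM. Troponin T (Tnnt2) was at 0.103 RPKM in CM KO and Nkx2-5, an early cardiac regulator, at 0.0346 RPKM, and neither was listed in ESC KO. The data thus go against the label of a cardiomyocyte for the KO culture, and "CM KO" stands below for the culture that went through the cardiomyocyte protocol.

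Markers of other cell types were present in the same library. The 5 erythroid markers summed to 45.1 RPKM in CM KO and 0.104 RPKM in ESC KO, with 4 of 5 higher in CM KO and Klf1 not listed in any library. The 6 fibroblast markers summed to 8.47 RPKM in CM KO and 0.253 RPKM in ESC KO, all 6 higher in CM KO. Blood and matrix markers thus separated the 2 KO libraries. The 5 visceral endoderm markers summed to 5.22 RPKM in CM KO and 0.0543 RPKM in ESC KO, most of it Apob. Endothelial markers summed to 3.84 RPKM in CM KO and 0.907 RPKM in ESC KO, of which Kdr gave 2.08 and 0.0234 RPKM, while Pecam1 went the other way at 0.447 and 0.776 RPKM. Epithelial markers summed to 9.07 RPKM in CM KO and 5.82 RPKM in ESC KO, smooth muscle markers to 1.89 and 0.423 RPKM, and trophoblast markers to 1.18 and 1.66 RPKM. The epithelial markers went both ways, as the keratins Krt8 and Krt18 were higher in CM KO, while Cdh1 stood at 2.09 RPKM in CM KO and 3.30 RPKM in ESC KO and Epcam at 1.24 and 1.80 RPKM. The trophoblast markers did so too, with Cdx2 at 0.508 RPKM in CM KO and 0.0165 RPKM in ESC KO, Tfap2c at 0.668 and 1.65 RPKM, and Elf5 not listed. Neural markers summed to 1.52 RPKM in CM KO and 3.67 RPKM in ESC KO, with Sox1 and Tubb3 not listed. Of this, Stmn2 gave 0.519 and 3 RPKM and Pax6 0.0188 and 0.0788 RPKM, while Nes went the other way at 0.983 and 0.596 RPKM. The 6 stem cell markers summed to 8.79 RPKM in CM KO and 37.6 RPKM in ESC KO, and Sox2 was not listed in any library. CM KO therefore held RNA of several cell types, and of stem cells too. In such bulk samples, fewer cells of a type and less RNA per cell cannot be told apart. How far cell makeup accounts for the differences below was not tested.

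**Figure D1:**
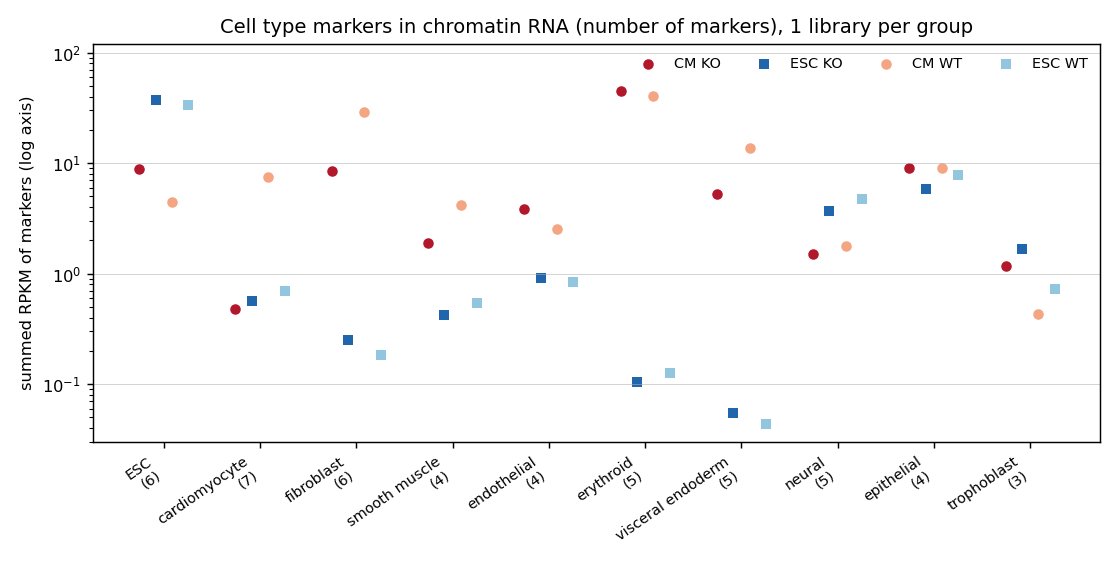
Summed RPKM of the markers of 10 cell types (log axis) in CM KO, ESC KO, CM WT and ESC WT, with the number of markers in brackets and 1 library per point. Cardiomyocyte markers in CM KO lie beside those of both ESC libraries, while erythroid markers stand at 45.1 RPKM in CM KO against 0.104 RPKM in ESC KO.

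Of the 4763 genes, 173 were at least 2-fold higher in CM KO (3.63%) and 75 at least 2-fold lower (1.57%), while 4515 lay within 2-fold. With 1 library a group there is no replicate check, so no test stands behind these counts. The median log2 ratio was -0.03, with 2246 genes above 0 (47.2%) and 2517 below (52.8%). Of the 173 higher genes 141 reached 1 RPKM in CM KO alone, which fixed their direction, and 32 did so in both libraries. Of the 75 lower genes 37 reached it in ESC KO alone and 38 in both. The span of another gene overlapped that of 65 of the higher genes (37.6%), 32 of the lower genes (42.7%) and 2115 of the tested genes (44.4%). Reads of overlapping genes may have been counted for either, and genes of this kind are marked as overlapping below.

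The genes nearest the limits were as follows. Dusp11 entered at 1.00 RPKM in CM KO and 0.7302 RPKM in ESC KO, and Pga5 stayed out at 0.99988 and 0.085906 RPKM. Gnas was the last gene called higher, at a log2 ratio of 1.0016, and Cdc42ep1 just missed at 0.9997. Among lower genes Gm14139 was the last called, at -1.0028, and Ubxn2a just missed at -0.9974. The number called thus depends on small differences at these edges.

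The libraries were of similar depth. From the spacing of the lowest RPKM values, taken as scaled by the whole gene span, which the sources used here do not state, about 29800000 reads stood behind CM KO and 28040000 behind ESC KO, and 29360000 and 27880000 behind CM WT and ESC WT. Intervals of fold changes in brackets are 95% exact (Clopper-Pearson) intervals on the estimated reads and cover counting error only.

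**Figure D2:**
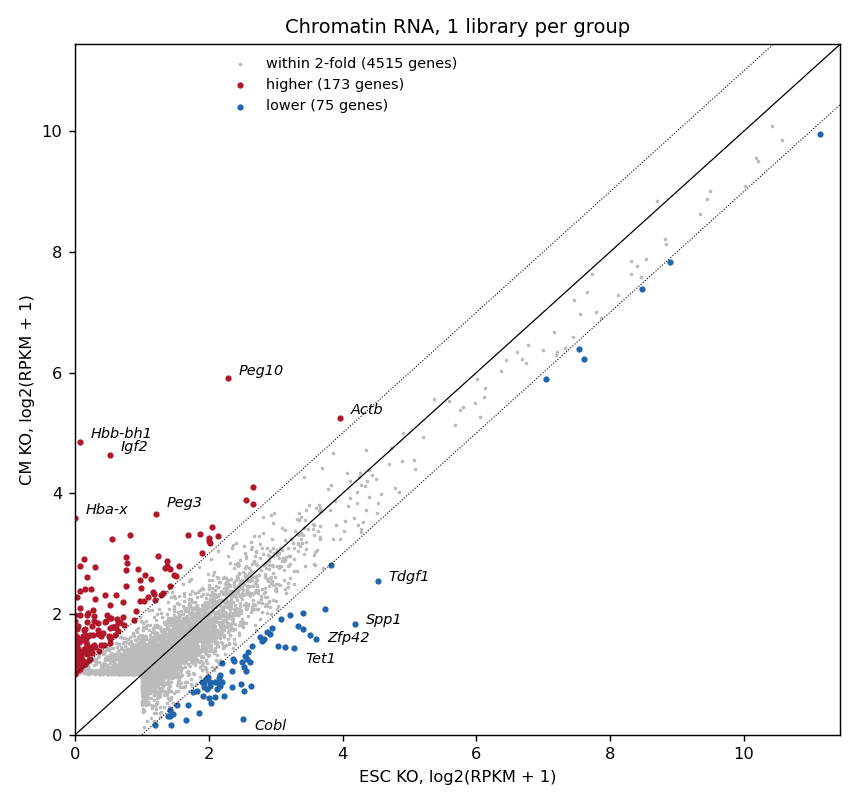
Chromatin RNA of CM KO (vertical axis) against ESC KO (horizontal axis) as log2(RPKM + 1) for the 4763 genes, 1 library each. Solid line, equal values, and dotted lines, 2-fold; red marks the 173 higher genes and blue the 75 lower genes, with the globins, Igf2 and the imprinted Peg10 and Peg3 farthest above the line and Tdgf1, Spp1 and Zfp42 far below it.

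The highest log2 ratio belonged to an embryonic globin gene, and 2 more stood among the 20 highest. They encode the oxygen carriers of the first red cells of the yolk sac. Hbb-bh1, a beta-like globin gene (chromosome 7, 103841638 to 103843162 of GRCm38.p6, the assembly behind mm10), stood at 28 RPKM in CM KO and 0.0466 RPKM in ESC KO, 602-fold (165 to 4951) and a log2 ratio of 4.79. The zeta globin Hba-x stood at 11.1 RPKM in CM KO and was not listed in ESC KO, so no fold is given. Hbb-y, the epsilon-type globin, stood at 5.94 RPKM in CM KO and 0.0476 RPKM in ESC KO, 125-fold (33.1 to 1004). In wild type these genes were high in the culture too, but in another order. Hbb-bh1 had 12.5 RPKM in CM WT and 0.0468 RPKM in ESC WT, and Hbb-y 18.2 and 0.0717 RPKM, so that Hbb-bh1 exceeded Hbb-y in CM KO and Hbb-y exceeded Hbb-bh1 in CM WT. Hba-x had 9.94 RPKM in CM WT and was not listed in ESC WT. These genes span under 2 kb each, so the ESC values rest on very few reads. Of 17 erythroid and blood genes listed in a KO library (called listed below) these 3 passed the filter, all through CM KO alone, so that the filter set their direction, and the median over the 17 was 0.53. The erythroid regulator Gata1, which overlaps other genes, stood at 0.0962 RPKM in CM KO and 0.00946 RPKM in ESC KO, below the filter.

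The promoters of Hba-x and Hbb-y are shown because both genes were almost silent in ESC KO and because globin promoters carry known box elements. Hbb-bh1 is named only. Each sequence is from RefSeq (GRCm38.p6), 300 bases on the gene's strand from 250 before to 50 after the start: Hba-x at chr11:32276350-32276649 on the plus strand and Hbb-y at chr7:103853158-103853457 on the minus strand. Capitals mark matches to CCACCC (the CACCC box), CCAAT and TATAAA.
Hba-x: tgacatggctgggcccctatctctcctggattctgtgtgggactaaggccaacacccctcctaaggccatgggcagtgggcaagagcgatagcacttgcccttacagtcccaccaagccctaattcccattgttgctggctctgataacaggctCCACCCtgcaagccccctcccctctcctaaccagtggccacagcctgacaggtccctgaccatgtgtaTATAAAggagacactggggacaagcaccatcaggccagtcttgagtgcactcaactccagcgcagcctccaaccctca
Hbb-y: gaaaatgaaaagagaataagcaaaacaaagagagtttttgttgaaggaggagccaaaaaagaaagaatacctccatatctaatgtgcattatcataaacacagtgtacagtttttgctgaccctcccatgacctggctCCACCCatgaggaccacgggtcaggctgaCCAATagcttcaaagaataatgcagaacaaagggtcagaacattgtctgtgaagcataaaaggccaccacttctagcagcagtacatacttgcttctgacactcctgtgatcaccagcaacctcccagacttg
In Hba-x the CCACCC begins 96 bases and the TATAAA 28 bases before the start. In Hbb-y the CCACCC begins 112 bases and the CCAAT 83 bases before it. On both strands, CCACCC was found in 30.9% of the 27025 promoters of the RefSeq table, in 42.3% of those of the 130 higher genes with a window and in 30.0% of those of the 50 lower genes. CCAAT was found in 37.9%, 40.8% and 38.0% of them, and TATAAA in 14.2%, 18.5% and 16%. Among the 3850 tested genes with a window 34.5% held CCACCC, 40.3% CCAAT and 6.96% TATAAA, the last below the shares of both called groups. AGATAA, the only form of the GATA motif that was searched, was in neither globin window. The related TGATAA stands in the Hba-x window and, on the other strand, in that of Hbb-y. A match is a run of letters and no evidence of binding.

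Imprinted genes, expressed from one parental copy and rich in regulators of fetal growth, held several of the most abundant higher genes. Of 27 listed imprinted genes 16 passed the filter, and 10 were higher and none lower, against 3.63% and 1.57% of all genes, with a median log2 ratio of 1.32 beside -0.03 over all genes tested. The median over all 27 listed was 0.52. Of the 16, 9 passed through CM KO alone, so that the filter set their direction, and 12 overlap another gene. Of the 10 higher genes only Peg10 and Peg3 reached 1 RPKM in both libraries. Peg10, a retrotransposon-derived gene needed in the placenta (chromosome 6, 4747306 to 4760517), was the most abundant, at 59.0 RPKM in CM KO against 3.86 RPKM in ESC KO, 15.3-fold (14.5 to 16.1). It stood at 20.6 RPKM in CM WT and 3.28 RPKM in ESC WT. CM KO thus had the highest Peg10 level of the 4 libraries. Its neighbour Sgce, whose span begins 0.102 kb away, stood at 2.47 against 0.188 RPKM in CM KO and ESC KO, and at 0.875 and 0.129 RPKM in the WT pair.

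Igf2, the fetal growth factor (chromosome 7, 142650768 to 142666816), which overlaps Igf2os and Mir483, stood at 24.0 RPKM in CM KO and 0.439 RPKM in ESC KO, 54.6-fold (47.4 to 63.1), beside 32.4 and 0.392 RPKM in CM WT and ESC WT. Peg3, a zinc finger gene that overlaps Peg3os, stood at 11.6 and 1.31 RPKM. Mest, an alpha/beta hydrolase that overlaps Copg2, stood at 8.92 and 0.771 RPKM. Dlk1, a NOTCH-like membrane protein of progenitor cells, overlaps no gene and stood at 3.28 RPKM in CM KO and 0.0474 RPKM in ESC KO. Nnat, Ndn, Igf2r and Gnas were also higher, with log2 ratios of 2.07, 1.39, 1.24 and 1.00, and all 4 overlap another gene. The lowest of the 16 were Zdbf2 at 4.10 against 5.69 RPKM and Zrsr1 at 1.18 against 1.56 RPKM, both overlapping. The same 16 genes had a median log2 ratio of 1.38 in CM WT over ESC WT.

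Genes of the insulin-like growth factor pathway had positive ratios as well, in a list that again holds the imprinted Igf2 and Igf2r. IGF2 signals through the receptor IGF1R and the adaptors IRS1 and IRS2, while IGF2R clears it and binding proteins hold it. Of 15 listed genes 13 passed, 11 of them through CM KO alone, so that the filter set their direction. All 13 had a positive ratio, beside 47.2% of all genes, and 6 were higher and none lower, beside 3.63% and 1.57%. Igf2 and Igf2r are among these 6, so the count is not independent of that of the imprinted genes. Among binding proteins, Igfbp4 stood at 5.10 against 0.130 RPKM, 39.3-fold (29.4 to 53.9), and Igfbp5 at 1.92 against 0.0483 RPKM, while Igfbp2 was close to even at 4.39 RPKM in CM KO and 3.84 RPKM in ESC KO. The receptor Igf1r, overlapping, stood at 1.66 and 0.567 RPKM, and its adaptor Irs2, overlapping, at 2.12 and 0.421 RPKM. Hmga2, a chromatin protein of growing embryonic cells, overlaps 5 other loci and stood at 3.19 and 0.210 RPKM. The mRNA-binding Igf2bp1 hardly differed, at 5.23 RPKM in CM KO and 4.96 RPKM in ESC KO. The pathway median was 0.90.

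**Figure D3:**
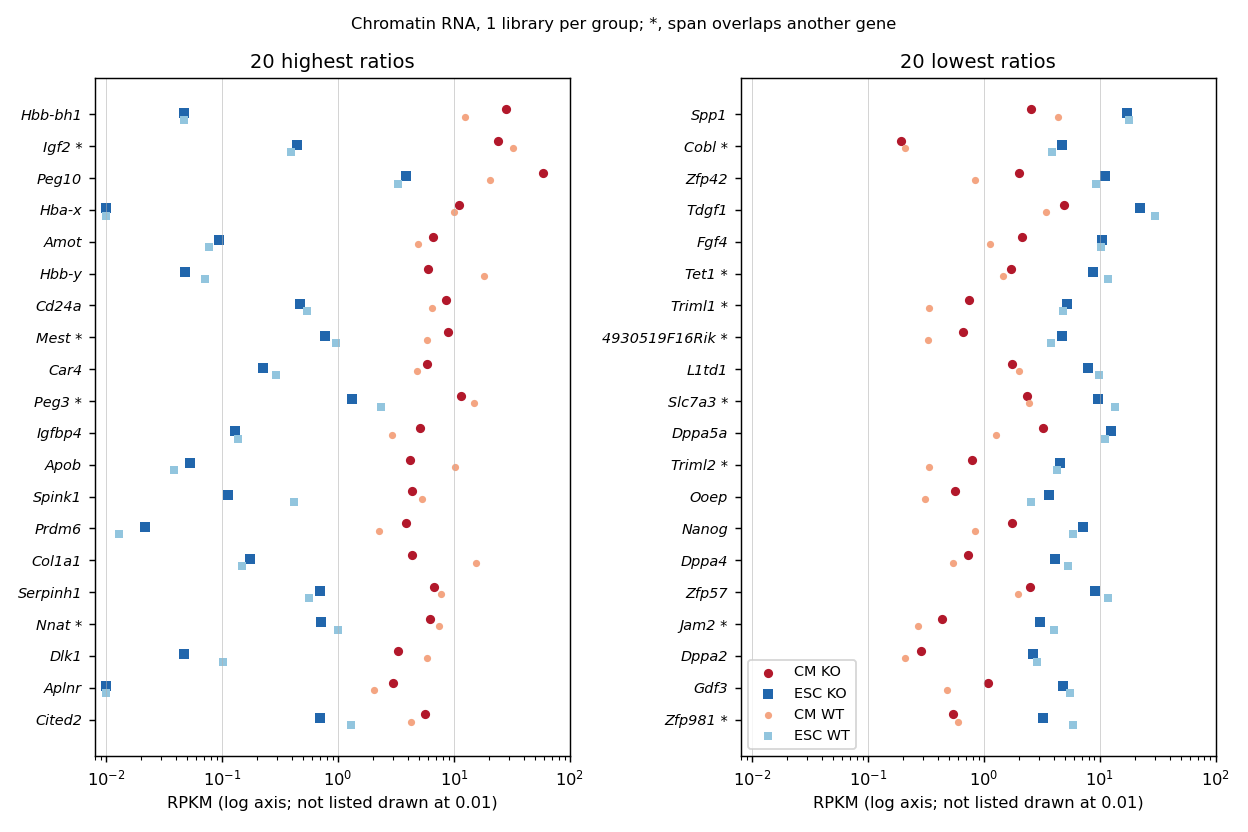
RPKM (log axis) of the 20 genes with the highest and the 20 with the lowest log2 ratio of CM KO over ESC KO, with CM WT and ESC WT beside them and 1 library per point; a gene not listed is drawn at 0.01 and an asterisk marks overlap with another gene. Peg10 reaches 59.0 RPKM in CM KO, and CM KO lies below ESC KO for each of the 20 lowest genes.

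The WNT, BMP, HIPPO and NOTCH pathways of the early mesoderm held no lower gene, and most of their genes in the filter lay within 2-fold. WNT ligands act on Frizzled receptors to free beta-catenin, and DKK1 and RSPO3 restrain and strengthen this signal. Of 25 listed WNT pathway genes 15 passed, 8 of them through CM KO alone, so that the filter set the direction of these 8. Of the 15, 5 were higher and none lower, beside 3.63% and 1.57% of all genes. The median was 0.73 over these 15 and 0.46 over all 25. The receptor Fzd2 stood at 2.97 against 0.136 RPKM, 21.9-fold (12.7 to 39.9). Fzd7 stood at 8.58 against 3.00 RPKM and Rspo3 at 1.85 against 0.0142 RPKM. Dkk1 stood at 1.90 RPKM in CM KO and 0.0374 RPKM in ESC KO, and Wls, which carries WNT ligands to the cell surface and overlaps other genes, at 1.77 and 0.131 RPKM. The receptors thus did not move alike, as Fzd5 stood at 3.49 against 5.0 RPKM. The nuclear factors Tcf7l2, overlapping, and Tcf7l1, overlapping, also went opposite ways, at log2 ratios of 0.99 and -0.45. In wild type the median of the same 15 genes was 0.25.

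Of 27 listed genes of the BMP and TGF-beta pathway 19 passed, 13 of them through CM KO alone, so that the filter set their direction. Of the 19, 18 had a positive ratio, beside 47.2% of all genes, a share that the filter raised. Of the same 19, 5 were higher and none lower, beside 3.63% and 1.57%, but all 5 passed through CM KO alone. The median was 0.69 over these 19 and 0.62 over all 27. BMP ligands drive mesoderm and blood formation through SMAD1 and SMAD5, and ID genes are direct targets. The ligand Bmp2 stood at 2.13 RPKM in CM KO and was not listed in ESC KO. The targets Id1 and Id2 stood at 2.43 against 0.460 RPKM and 2.0 against 0.435 RPKM. The inhibitor Smad6 stood at 2.17 against 0.268 RPKM, 8.09-fold (7.39 to 8.88), but the other inhibitor, Smad7, overlapping, at 3.38 against 4.52 RPKM. Cer1, a secreted antagonist of NODAL, BMP and WNT, stood at 2.68 RPKM in CM KO and was not listed in ESC KO. It was among the 13 higher genes not listed in ESC KO, as was Aplnr, the receptor of apelin in cardiac and vascular progenitors, at 2.97 RPKM.

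In the HIPPO pathway, YAP and TEAD proteins switch on growth genes unless LATS kinases and angiomotins hold YAP back. Of 19 listed genes 11 passed the filter, and 1 was higher and none lower, beside 3.63% and 1.57% of all genes. The higher one was Amot, the angiomotin itself, at 6.55 RPKM in CM KO and 0.0945 RPKM in ESC KO, 69.4-fold (59.2 to 81.5). The YAP target Ccn1 stood at 5.84 against 2.62 RPKM and Ccn2, overlapping, at 3.12 against 3.08 RPKM. Of 14 listed NOTCH pathway genes 5 passed and none was called. Rbpj, the DNA-binding factor of the pathway, was the largest difference there, at 1.18 against 3.31 RPKM. Its log2 ratio, with 1 RPKM added to both, was -0.99 and just missed the limit.

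Some cardiac regulators were higher, and sarcomere genes were nearly absent. Of 18 listed cardiac transcription factors 5 passed the filter, all through CM KO alone, so their direction was fixed. Tbx20 (89.2-fold, 62.2 to 132), Gata6 and Hand1, the last 2 overlapping noncoding genes, were called higher, beside 3.63% of all genes. Meis2, overlapping, stood at 1.12 RPKM in CM KO and 0.155 RPKM in ESC KO, and Mef2a at 1.51 and 0.615 RPKM. Over all 18 listed genes, in the filter or not, the median log2 ratio was 0.50. Of 20 listed sarcomere genes 2 passed, and the median over all 20 was 0.04. The 1 called higher, beside 3.63% of all genes, was Tpm1, a tropomyosin of muscle and non-muscle cells, with 3.08-fold (2.90 to 3.26). Of 14 listed genes of cardiac calcium handling and conduction 3 passed and 1 was higher, beside the same 3.63%. The gap junction gene Gja1 stood at 8.07 RPKM in CM KO and 3.04 RPKM in ESC KO, against 7.40 and 6.87 RPKM in CM WT and ESC WT. The levels of Gja1 in the cultures were thus close, and ESC KO was the low one of the 4 libraries.

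Fibroblast and matrix genes were also among the higher genes. Of 24 listed 11 passed, 8 of them through CM KO alone, so that the filter set the direction of these 8. Of the 11, 6 were higher and none lower, beside 3.63% and 1.57% of all genes. The median was 1.03 over these 11 and 0.66 over all 24. The collagen Col1a1 stood at 4.34 against 0.174 RPKM, 25.0-fold (20.0 to 31.5), below its 15.5 RPKM in CM WT. Serpinh1, the collagen chaperone, stood at 6.67 against 0.702 RPKM, and the filament gene Vim at 5.68 against 0.928 RPKM. Fibronectin (Fn1) was the most abundant at 11.2 against 6.04 RPKM and was not called. The laminin Lamc1, overlapping, was the 1 gene with a negative ratio, at 1.80 against 2.07 RPKM. In wild type the median of these 11 genes was 1.60.

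Cadherins, which join cells, went both ways. Of 38 listed cadherins and protocadherins 5 passed the filter and 4 were higher, beside 3.63% of all genes, but all 4 passed through CM KO alone, so that the filter set their direction. The median was 1.38 over these 5 and 0.04 over all 38. N-cadherin (Cdh2) stood at 2.15 against 0.167 RPKM and Cdh11, a mesenchymal cadherin, at 1.92 against 0.0161 RPKM, whereas E-cadherin (Cdh1), which joins stem cells and epithelia, stood at 2.09 against 3.30 RPKM. The keratin pair Krt8 and Krt18, which form filaments of simple epithelia, was higher, at 1.75 against 0.196 RPKM and 3.99 against 0.523 RPKM. The heat-stable surface antigen Cd24a stood at 8.50 against 0.468 RPKM. Beta-actin (Actb, overlapping) was among the most abundant higher genes, at 37.2 against 14.5 RPKM. Of the 24 adhesion and cytoskeleton genes in the filter, of 28 listed, 4 were higher and none was lower. A positive ratio was found for 21, beside 47.2% of all genes, and 9 of the 24 passed through CM KO alone. No smooth muscle gene passed the filter, with Acta2 just under 1 RPKM in CM KO and at 0.122 RPKM in ESC KO.

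Genes of vessel and endoderm cells passed in small numbers. Of 14 listed endothelial genes 3 passed, all overlapping another locus and all through CM KO alone. The receptor Kdr was 88.9-fold higher (62.8 to 134) and the transcription factor Fli1 stood at 1.20 against 0.00944 RPKM. Of 14 listed visceral endoderm genes 3 passed and all were higher, beside 3.63% of all genes. Of these 3, 2 passed through CM KO alone, and the median over the 14 was 0.42. Apob, the protein of lipoprotein particles, stood at 4.21 against 0.0527 RPKM, 79.9-fold (61.6 to 105), beside 10.3 and 0.0383 RPKM in the WT pair. Apoe stood at 13.8 against 4.90 RPKM, and Rbp4, the retinol carrier, at 1.20 against 0.0245 RPKM. Of 10 listed trophoblast and extraembryonic genes 3 passed and 2 were higher, beside 3.63% of all genes. Both of these 2 passed through CM KO alone, and the median over the 10 was 0.18. The carbonic anhydrase Car4 stood at 5.84 against 0.224 RPKM and Hand1, overlapping, at 1.62 against 0.0433 RPKM, whereas Tfap2c stood at 0.668 against 1.65 RPKM.

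**Figure D4:**
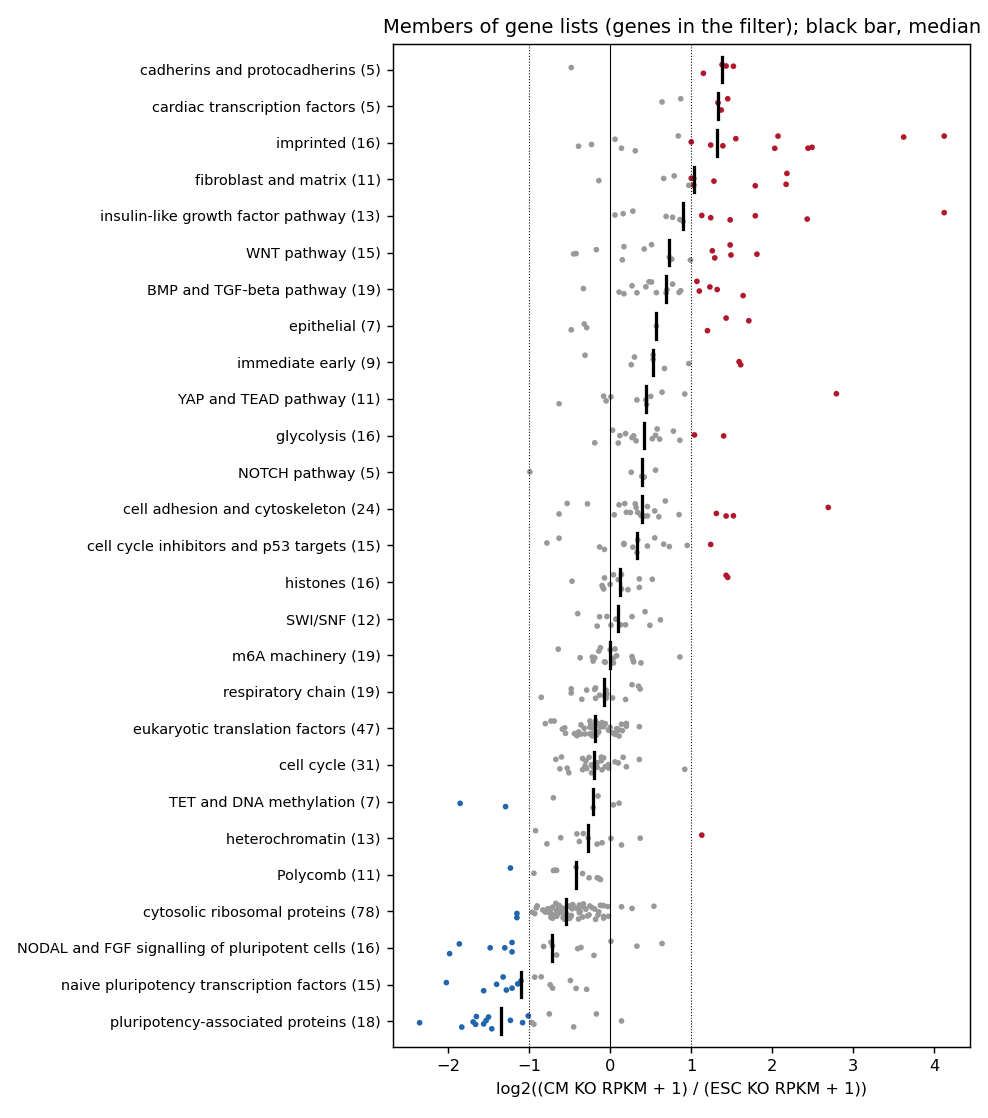
Log2 ratio of CM KO over ESC KO for the genes in the filter of lists and families with at least 5 such genes, with their number in brackets; red and blue points are at least 2-fold higher and lower, the black bar is the median, and dotted lines mark 2-fold. Medians of the lists drawn run from 1.38 for cadherins to -1.35 for pluripotency-associated proteins.

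Pluripotency genes made up much of the lower side. All 15 naive pluripotency transcription factors in the filter, of 16 listed, had a negative ratio, 8 were lower and none higher, against 1.57% lower over all genes, with a median of -1.10. Of these 15, 8 passed through ESC KO alone, which fixed their direction, and 7 reached 1 RPKM in both libraries. Zfp42 (REX1), the marker of the naive state, had a ratio of 0.18 (0.166 to 0.195). Nanog had a ratio of 0.246 (0.219 to 0.275). Pou5f1, which encodes OCT4, stood at 1.32 RPKM in CM KO and 5.10 RPKM in ESC KO, a ratio of 0.258 (0.218 to 0.304). Klf4 and Klf5 stood at 0.554 against 2.77 RPKM and 0.831 against 3.58 RPKM. Nr5a2, Nr0b1 and Tfcp2l1, the last overlapping, were lower as well. Esrrb, overlapping, stood at 0.448 against 1.76 RPKM, a log2 ratio of -0.93 that missed the limit. Sall4, overlapping, changed least, at 2.38 against 3.14 RPKM.

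These genes were not silent in CM KO. Nanog was at 1.76 RPKM in CM KO beside 0.842 RPKM in CM WT, and Zfp42 at 2.02 RPKM in CM KO beside 0.837 RPKM in CM WT. Klf4 was at 0.554 RPKM in CM KO and 0.319 RPKM in CM WT. Pou5f1, in contrast, was level in the cultures, at 1.32 RPKM in CM KO and 1.34 RPKM in CM WT. Over the same 15 genes the median log2 ratio was -1.15 in wild type, with both ESC libraries as the base of their own genotype.

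Other proteins tied to pluripotency had the lowest list median, -1.35 over 18 genes in the filter of 22 listed, with 12 lower, none higher and 17 with a negative ratio, beside 1.57% lower and 52.8% negative over all genes. Of the 18, 6 passed through ESC KO alone, which fixed their direction. Spp1 (osteopontin, chromosome 5, 104435111 to 104441053), a secreted phosphoprotein, had the lowest log2 ratio of all genes, -2.35, at 2.56 RPKM in CM KO and 17.2 RPKM in ESC KO, a ratio of 0.149 (0.134 to 0.164). The RNA-binding L1td1 stood at 1.74 against 7.85 RPKM. The neighbours Dppa4 and Dppa2, which open chromatin in early embryos, stood at 0.730 against 4.11 RPKM and 0.286 against 2.63 RPKM, and Dppa5a at 3.24 against 12.4 RPKM. Zfp57, which guards imprints in stem cells, stood at 2.49 against 9.07 RPKM. Lin28a, the inhibitor of let-7 maturation, was the exception, at 2.08 against 1.79 RPKM.

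Of 16 genes in the filter for the stem cell's own NODAL and FGF signals 6 were lower and none higher, beside 1.57% and 3.63% of all genes, while 10 lay within 2-fold. The median was -0.72, and 5 of the 16 passed through ESC KO alone, which fixed their direction. Tdgf1 (CRIPTO), the co-receptor of NODAL, stood at 4.88 RPKM in CM KO and 22.1 RPKM in ESC KO, a ratio of 0.221 (0.205 to 0.237). Fgf4 stood at 2.15 against 10.4 RPKM and its feedback inhibitor Spry4 at 1.30 against 4.66 RPKM. Gdf3, a NODAL-related ligand, stood at 1.09 against 4.86 RPKM. Nodal itself stood at 0.814 against 2.01 RPKM and was not called. The inhibitors Lefty1, overlapping, and Lefty2 were lower in KO, at 0.922 against 3.45 RPKM and 1.58 against 4.98 RPKM. In CM WT and ESC WT they were level, at 0.865 and 0.836 RPKM for Lefty1 and 0.924 and 0.882 RPKM for Lefty2. Their lower call in KO thus rests on a high level in ESC KO. The receptor Fgfr1, overlapping, went the other way, at 1.61 against 0.677 RPKM.

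The promoters of Nanog, Zfp42 and Tdgf1 are shown because Nanog and Zfp42 are known targets of OCT4 and SOX2 and because the Tdgf1 window differed in ATAC-seq. They come from the same table, at chr6:122707239-122707538 on the plus strand for Nanog (the first of 2 windows), chr8:43306960-43307259 on the minus strand and chr9:110946109-110946408 on the minus strand. Capitals mark the 7 letters TTTGCAT of the octamer that POU factors bind or, in Nanog, a composite in which these letters are followed, after any 1 base, by the SOX element ACAATG.
Nanog: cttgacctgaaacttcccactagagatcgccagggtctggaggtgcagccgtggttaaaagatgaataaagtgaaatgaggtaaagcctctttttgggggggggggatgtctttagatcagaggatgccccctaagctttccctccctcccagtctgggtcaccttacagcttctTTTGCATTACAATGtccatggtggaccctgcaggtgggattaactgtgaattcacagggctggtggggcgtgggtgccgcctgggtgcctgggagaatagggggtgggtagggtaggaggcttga
Zfp42: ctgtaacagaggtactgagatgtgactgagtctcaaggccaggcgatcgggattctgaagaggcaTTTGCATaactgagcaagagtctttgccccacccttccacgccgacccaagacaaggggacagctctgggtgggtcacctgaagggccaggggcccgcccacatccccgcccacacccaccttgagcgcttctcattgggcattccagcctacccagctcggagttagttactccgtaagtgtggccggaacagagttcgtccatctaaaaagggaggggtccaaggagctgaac
Tdgf1: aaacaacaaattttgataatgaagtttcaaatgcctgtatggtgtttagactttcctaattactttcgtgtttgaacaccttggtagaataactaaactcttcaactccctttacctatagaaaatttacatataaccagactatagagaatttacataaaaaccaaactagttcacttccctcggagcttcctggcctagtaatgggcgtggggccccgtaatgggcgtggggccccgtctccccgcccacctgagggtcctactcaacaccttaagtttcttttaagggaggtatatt
The Nanog element begins 75 bases before the start, and the Zfp42 octamer 185 bases before it. The Tdgf1 window holds neither. TTTGCAT was in 4.59% of all 27025 promoters and 2.96% of those of tested genes. It was in 2.31% of those of higher genes and 6.00% of those of lower genes, which is 3 of 50. The composite was found in 1 window of 27025, that of Nanog. Only 1 form of it was searched, the Nanog stretch itself with 1 base left free. A match in Nanog was therefore certain, and other forms in other promoters could not be found. In ATAC-seq the Nanog and Zfp42 windows were called open in 3 of 3 CM KO and 3 of 3 ESC KO libraries. The Tdgf1 window was called in 0 of 3 CM KO and 3 of 3 ESC KO libraries, and in 0 of 3 and 3 of 3 libraries of the WT pair. Hba-x was called in 1 of 3 CM KO and 0 of 3 ESC KO libraries, and Hbb-y in none of either.

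Chromatin and DNA methylation genes had fewer calls. Of 7 genes of the TET and DNA methylation list in the filter 2 were lower and none higher, beside 1.57% and 3.63% of all genes. Tet1, overlapping, and Tet2, which oxidise methylcytosine, stood at 1.70 against 8.72 RPKM and 1.08 against 4.08 RPKM, while the maintenance enzyme Dnmt1, overlapping, was near even at 1.82 against 2.13 RPKM. All 11 Polycomb genes in the filter had a negative ratio, beside 52.8% of all genes, and reached 1 RPKM in both libraries. Their median was -0.42, and that over all 20 listed Polycomb genes was -0.13. Only Phc1 was called lower, beside 1.57% of all genes. It stood at 2.0 against 6.06 RPKM, while Jarid2 at 3.23 against 7.14 RPKM just missed and Ezh2, overlapping, stood at 1.72 against 2.05 RPKM. Among 13 heterochromatin genes 1 was higher and none lower, beside 3.63% and 1.57% of all genes. The higher one was the histone methyltransferase Suv39h1, at 3.14 against 0.888 RPKM, while the corepressor Trim28, overlapping, stood at 9.23 against 18.4 RPKM. Of 12 SWI/SNF genes none was called. Linker histones H1f4 and H1f0, of which H1f0 marks cells that leave the cycle, were higher at 16.3 against 5.33 RPKM and 5.82 against 1.53 RPKM. H1f1, H1f3 and H1f5 had log2 ratios between -0.07 and 0.10.

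None of the 19 genes of the m6A machinery in the filter was called, and their median was 0.00. Mettl3, overlapping Tox4, stood at 1.07 RPKM in CM KO and 1.28 RPKM in ESC KO, and at 1.18 and 1.73 RPKM in CM WT and ESC WT. Chromatin RNA of a gene does not show whether its protein was made, so this level does not check the knockout. Its partner Mettl14 stood at 1.10 against 1.05 RPKM. The largest differences were Igf2bp2, an m6A reader, at 2.04 against 0.682 RPKM, and Wtap, the adaptor of the writer complex, at 2.36 against 4.23 RPKM.

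Ribosomal protein genes differed by small amounts, nearly all downward. Of 78 cytosolic ribosomal protein genes in the filter 75 had a negative ratio, beside 52.8% of all genes, with a median of -0.54. Of these 78 only Rplp2 and Rps20 were called lower, beside 1.57% of all genes. They stood at 82.7 against 184 RPKM and 58.5 against 131 RPKM, and both overlap noncoding RNA genes. The span of 39 of the 78 overlaps another gene, often a small nucleolar RNA inside an intron, and ribosomal protein genes have many processed copies, so these values are uncertain. Among other highly abundant, overlapping genes, chosen here after their values were seen, the chaperone Hspa8 stood at 990 against 2265 RPKM. The laminin receptor and ribosomal protein Rpsa, which is not among the 78, was also lower, at 226 against 475 RPKM. Hspa8 and Rpsa each hold snoRNA genes within their spans.

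Of 31 cell cycle genes in the filter 25 had a negative ratio, beside 52.8% of all genes, and none was called, with a median of -0.20. Top2a, overlapping, stood at 8.44 against 13.5 RPKM and Ccnb1, the mitotic cyclin, at 2.13 against 3.97 RPKM, while Ccnd2, overlapping, stood at 1.10 against 0.111 RPKM. Of 15 cell cycle inhibitors and p53 targets 1 was higher, beside 3.63% of all genes. The higher one was Plk2, with 3.78-fold (3.17 to 4.52), and Cdkn1b (p27) stood at 1.68 against 0.620 RPKM. The immediate early gene Jun stood at 2.70 against 0.212 RPKM and Klf6 at 4.90 against 0.963 RPKM. They were the 2 called of 9, beside 3.63% higher over all genes, and both passed through CM KO alone.

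Glycolysis genes had a positive ratio in 15 of 16 members in the filter, beside 47.2% of all genes, and 3 of the 16 passed through CM KO alone. Their median was 0.42 in KO and -0.18 in WT, beside -0.03 and -0.23 for all tested genes. The glucose transporter Slc2a1, overlapping, stood at 9.92 RPKM in CM KO and 3.13 RPKM in ESC KO, 3.17-fold (3.04 to 3.32), beside 8.72 and 5.68 RPKM in the WT pair. The enzyme Tpi1, overlapping, stood at 4.50 against 1.67 RPKM and Ldha, overlapping, at 5.0 against 2.31 RPKM. Gapdh was the 1 gene below 0, at 4.52 against 5.29 RPKM. Respiratory chain genes were near even, with a median of -0.07 and no call among 19. The largest difference there was Atp5b, a subunit of ATP synthase that overlaps a snoRNA, at 95.8 against 173 RPKM.

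Some called genes were neighbours. Of 1491 pairs of neighbouring tested genes 7 were both higher, 7 both lower and 1 opposite. The higher pairs included Hbb-bh1 and Hbb-y, with 8.59 kb between them, Krt8 and Krt18, and Hapln1 and Vcan, which build hyaluronan matrix, 43.5 kb apart. The lower pairs included Dppa4 and Dppa2 (16 kb), Dppa5a and the oocyte gene Ooep (8.70 kb), and Triml2 and Zfp42 (101 kb). Higher genes made up 8.07% of the 161 tested genes of chromosome X and 7.46% of the 228 of chromosome 13, beside 3.63% of all. Lower genes made up 3.73% of those of chromosome X and of the 268 of chromosome 4, 3.63% of the 193 of chromosome 17 and none of the 172 of chromosome 12, beside 1.57% of all. These shares were picked from 21 chromosomes and not tested. Called genes were shorter, with a median span of 13.2 kb for higher and 14.4 kb for lower genes against 23.9 kb for all tested genes.

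The wild-type pair gave the same contrast without the knockout. Of 5091 genes in its filter 181 were higher (3.56%) and 232 lower (4.56%), with a median log2 ratio of -0.25. Of the 173 genes higher in KO 103 were also higher in WT, which is 59.5% of the KO list and 56.9% of the WT list. Of the 75 lower in KO 60 were lower in WT too, 80% of the KO list but 25.9% of the longer WT list. The 173 genes had a median log2 ratio of 1.30 in KO and 1.16 in WT, and the 75 genes -1.23 in KO and -1.53 in WT. As the genes were chosen on the KO values, these medians describe them and test nothing. Whether the ratios of KO and WT differ has no replicate check.

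ATAC-seq was not used to choose the genes, and its 3 libraries a group allow a test. The label of CM KO replicate 3 names RNA as its molecule, but its deposited table is a peak list like those of the other libraries, and values are given with and without it. CM KO libraries held 70132, 76381 and 73017 called intervals and ESC KO libraries 115345, 111956 and 116605. Because of this gap each library was described by the share of its own intervals that lay in a gene group, from 1 kb before to 1 kb after each gene. In the 173 higher genes lay 0.776%, 0.770% and 0.814% of the intervals of CM KO libraries, and 0.629%, 0.646% and 0.639% of those of ESC KO libraries. The groups did not overlap, with 0.786% ± 0.0237 in CM KO and 0.638% ± 0.00822 in ESC KO (SD, n = 3 each), a difference of 0.148 points (two-sided exact permutation p = 0.1, the smallest that 3 against 3 libraries allow). Without CM KO replicate 3 the difference was 0.135 points.

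In the 75 lower genes the shares overlapped. They were 0.352%, 0.343% and 0.336% in CM KO libraries and 0.337%, 0.354% and 0.352% in ESC KO libraries, a difference of -0.00423 points (two-sided exact permutation p = 0.5), and -0.000205 points without CM KO replicate 3. At gene ends alone, within 1 kb, the difference was 0.0277 points without overlap (exact permutation p = 0.1), and as a share of the intervals in tested genes, a setting chosen after seeing the data, it was -0.121 points (exact permutation p = 0.1). The direction for the lower genes thus depends on the setting. In wild type the same genes held 0.308% ± 0.0164 in CM WT and 0.352% ± 0.0125 in ESC WT (SD, n = 3 each), with no overlap (two-sided exact permutation p = 0.1).

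All tested genes together held 18.3%, 18.1% and 18% of the intervals of CM KO libraries and 17.2%, 17.2% and 17.3% of those of ESC KO libraries, a difference of 0.873 points (two-sided exact permutation p = 0.1). In wild type the difference ran the other way, with 16.8% ± 0.240 in CM WT and 17.4% ± 0.185 in ESC WT (SD, n = 3 each), -0.592 points. The KO change minus the WT change was 1.46 points for all tested genes (two-sided permutation of the genotype within each cell type, 400 arrangements, p = 0.015, adjusted p = 0.045 over the 3 gene groups). For the higher genes it was -0.0264 points (permutation p = 0.185, adjusted p = 0.185) and for the lower genes 0.0392 points (permutation p = 0.05, adjusted p = 0.075). Without CM KO replicate 3 it was 1.51 points (permutation p = 0.015) for all tested genes, -0.0400 points (permutation p = 0.02) for the higher genes and 0.0432 points (permutation p = 0.075) for the lower genes. The value for the higher genes thus depends on that library. All 3 gene groups were chosen on KO RNA levels, so this comparison between genotypes is not neutral. What that choice adds to these differences was not tested.

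**Figure D5:**
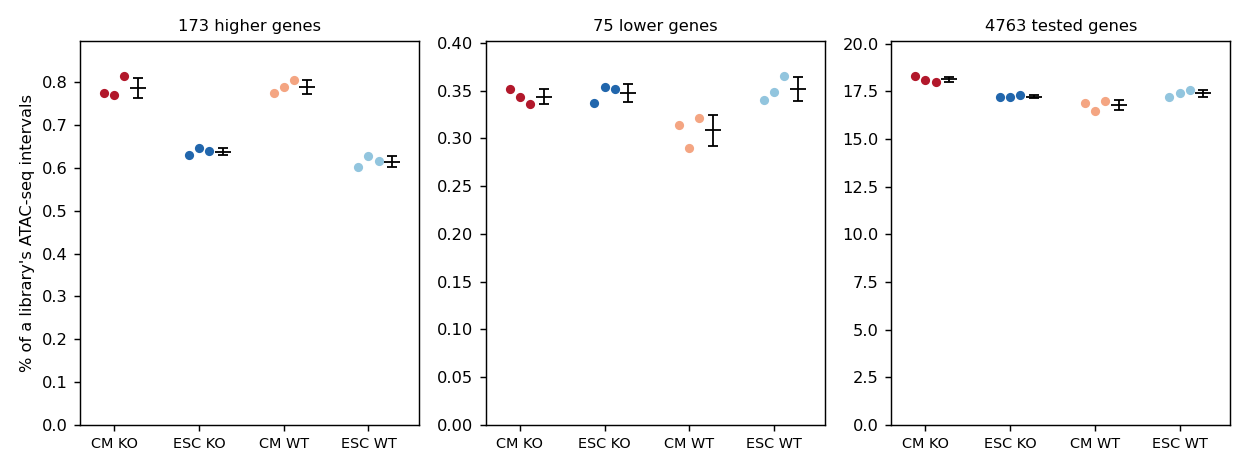
Percent of each ATAC-seq library's called intervals that lay in the 173 higher, the 75 lower and all 4763 tested genes, 3 libraries per group, with mean and SD. CM KO libraries (0.770% to 0.814%) lie above ESC KO libraries (0.629% to 0.646%) for the higher genes and among them for the lower genes.

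Single regions were then counted by gene. Of 153110 merged regions of the 6 KO libraries 1867 were called in 3 of 3 CM KO and 0 of 3 ESC KO libraries (gained), and 19105 in 0 of 3 and 3 of 3 (lost). Of the 173 higher genes 22 held a gained region (12.7%), beside 3.80% of all tested genes, and 45 held a lost one (26%), beside 34.3%. Of the 75 lower genes 2 held a gained region (2.67%) and 33 a lost one (44.0%). Promoter windows were called open in all 6 libraries for 100 of 130 higher genes (76.9%) and 37 of 50 lower genes (74.0%), beside 93.2% of the 3850 tested genes with a window. Most promoters of called genes were thus open in both states. Of the higher genes, Ctla2a, a cysteine protease inhibitor, was the 1 with a gained promoter, called in 3 of 3 CM KO and 0 of 3 ESC KO libraries. The cytoskeletal linker Rdx was higher in RNA while its window was called in 0 of 3 CM KO and 3 of 3 ESC KO libraries. Among lower genes Cobl, an actin nucleator that overlaps noncoding genes, stood at 0.194 against 4.71 RPKM and held 1 gained and 7 lost regions.

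The lists of m6A positions, 1 a group, held 13962 positions in CM KO and 18076 in ESC KO, so both KO libraries still had called positions. On the 173 higher genes lay 658 of the CM KO positions (4.71%) and 202 of the ESC KO positions (1.12%). On the 75 lower genes lay 118 (0.845%) and 692 (3.83%). At least 1 position stood on 83.2% of the higher genes in CM KO and 36.4% in ESC KO, and on 50.7% and 96.0% of the lower genes. Over all tested genes these shares were 62% in CM KO and 71% in ESC KO. The positions thus moved with the RNA level, and as a position can be called only where RNA was sequenced, how much of this is the level was not tested. Peg3 had 30 positions in CM KO and 4 in ESC KO, and Apob 27 and 0. Tet1 had 9 positions in CM KO and 61 in ESC KO, and Cobl 1 and 38. Of the 173 higher genes 124 had more positions in CM KO, 10 had more in ESC KO and 13 had equal numbers above 0. For the 75 lower genes these counts were 0, 67 and 5. In Peg10 the numbers were close, at 16 in CM KO and 14 in ESC KO, with 12 positions on both lists. Its RNA differed 15.3-fold.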

How the data were processed

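ATAC-seq (12 libraries), chromatin RNA (4) and m6A position lists (4) were read as deposited. Tools named in the submitters' processing notes are HISAT2, MACS2, Bowtie, Picard and cutadapt, for build mm10, with no role or version. RPKM values per gene were deposited by the authors; the sources used here do not state whether they count the whole gene span or exons, and the read estimates assume the span. The counting tool, strand setting and annotation were not given in the sources used here. For ATAC-seq the authors deposited 1 MACS2 peak list per library, with −log10 q values, per the labels and the files' layout, used only as a filter, and summits of 1 interval were merged. The deposited m6A lists hold a gene, a position and its motif.

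Of 22332 gene identifiers 99.5% matched a symbol and 89.9% a RefSeq gene (GRCm38.p6), which gave spans and overlaps. Reads were estimated from the depth at which low RPKM values came closest to whole reads (54.3% to 56.6% of genes with 1 to 10 reads lay within 0.05 of a whole read), so they are approximate. Ratios used a pseudocount of 1 RPKM, which understates low genes, and a threshold of 2-fold. On simulated data with counting error only and 200 of 4763 genes changed 4-fold, 74% were called and no unchanged gene was. Both simulated libraries started from each gene's higher KO value, so unchanged genes were low in neither. The simulation held no variation between cultures or libraries and gives no rate of false calls for the real data. ATAC-seq shares were compared by exact permutation over libraries. Replicate numbers did not pair libraries (correlations of deviations 0.00128 to 0.00352). Nothing says that libraries came from separate cultures, so p-values measure the spread between libraries, which may be technical.

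The genes, lists and tests were chosen with earlier results of these data known. Genes were named as the 20 highest and 20 lowest ratios, the called members of each list (filled up to 4 by size of the ratio), the most abundant members, Mettl3 and the markers. Genes beyond this rule (those near a limit, neighbours, pathway partners and those cited for ATAC-seq or m6A) were chosen after their values were seen. Of the called genes with opposite signs in KO and WT, 1 is counted but not reported here. Python 3.11.15, numpy 2.4.6, pandas 2.3.3, scipy 1.17.1 and matplotlib 3.10.9 were used.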

Additional observations from a re-analysis of the deposited data

Results flagged for a closer look

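Among called genes, 8 had opposite signs in the KO and WT comparisons, some with a WT ratio near 0, and 7 of them are given here. None of these differences was tested, because each rests on 1 library per group. Myo3a, an unconventional myosin that overlaps a pseudogene, had a log2 ratio of 1.47 in KO and -0.52 in WT, with 9.09 RPKM in CM KO and 2.65 RPKM in ESC KO beside 2.24 RPKM in CM WT and 3.63 RPKM in ESC WT. The WNT receptor Fzd10 had 1.03 and -0.32, with 2.73 RPKM in CM KO and at most 0.913 RPKM in the other libraries. The histone gene H2ac15 had 1.22 and -0.08. The kinase gene Camk1d, overlapping, had -1.14 in KO and 0.03 in WT. The related kinase gene Pnck had -1.26 and 0.53, at 0.122 RPKM in CM KO and 1.69 RPKM in ESC KO. Lefty1 had -1.21 in KO and 0.02 in WT, and Lefty2 -1.21 and 0.03.

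The medians of 5 gene lists changed sign between the KO and WT comparisons, likewise untested. They were 0.42 in KO and -0.18 in WT for glycolysis, and 0.33 and -0.05 for cell cycle inhibitors and p53 targets. Histones had 0.12 and -0.13, the histone clusters 0.19 and -0.09, and SWI/SNF genes 0.10 and -0.02. The median of all tested genes was -0.03 in KO and -0.23 in WT, and that of the genes in the WT comparison's own filter -0.25.

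The share of ATAC-seq intervals in all tested genes changed differently in the 2 genotypes, by 1.46 points (KO change minus WT change, permutation of the genotype within each cell type, p = 0.015, adjusted p = 0.045 over 3 gene groups). Leaving out each of the 12 libraries in turn gave 1.33 to 1.55 points. CM KO libraries also had the fewest called intervals, and the part of this in the share was not tested. The tested genes were chosen on KO RNA levels, and the part of that choice was not tested either.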

How the results depend on the processing

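The counts depend on the pseudocount and the filter. Higher and lower genes numbered 447 and 210 with a pseudocount of 0.1 RPKM and 290 and 128 with 0.5 RPKM, and all 173 higher and 75 lower genes remained called under both. With at least 2 RPKM in either library 109 and 68 genes were called of 1868, and among genes that overlap no other 108 and 43 of 2648. With CM KO scaled to a median ratio of 0 the counts were 185 and 72, among genes listed in both files 160 and 75, and without a filter 173 and 75. The share of higher genes among the calls was 61.6% to 72%. Of 52 list medians 31 moved by at least 0.1 log2 units with a pseudocount of 0.1 RPKM, 24 with 0.5 RPKM and 30 without a filter, and 26 of 51 with at least 2 RPKM, and 118 of 125 named genes fell outside their counting interval, or had none, with 0.1 RPKM. No list median of at least 1 in size and none of the 124 named genes past 2-fold changed sign, and Rif1 was the 1 that dropped under 2-fold with scaling. For the ATAC-seq share in higher genes, the difference was 0.105 points at gene ends, 0.179 points with −log10 q of at least 5 and 0.135 to 0.157 points leaving out 1 library each (exact permutation p = 0.1 for each). For lower genes the sign turned to 0.0277 points at gene ends (exact permutation p = 0.1) and 0.00852 points with the q limit (exact permutation p = 0.3), with -0.00951 to -0.000205 points leaving out 1 library each, and the cause was not tested. As a share of the intervals in tested genes, a setting chosen after seeing the data, the differences were 0.641 and -0.121 points (exact permutation p = 0.1 for each). With the replicate number as a replicate block the p was 0.25 for higher genes (difference 0.148) and 0.75 for lower genes (-0.00423), from 8 sign flips.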
